A study of Mus musculus with 15 samples.

Results

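The expression of 10 genes that link cell ploidy to the p53 pathway was examined in hepatocytes sorted by DNA content. The genes were chosen by their function: Casp2, Pidd1, Cradd and Ankrd26 of the caspase-2 complex and its centriolar anchor, Trp53 and its inhibitor Mdm2, and the p53 target genes Cdkn1a, Ccng1, Bax and Zmat3. All 10 were among the 55984 gene symbols of the count table, and all 10 were among the 17488 genes that passed the filter on low counts. Hepatocytes were isolated by collagenase perfusion from the livers of 4 adult male wild-type C57BL/6JJcl mice, stained with the DNA dye Hoechst and sorted by flow cytometry before RNA sequencing. The 2n-whole and 4n-whole populations were gated on total Hoechst signal, and within 4n cells the 4n-bottom population had the lower and the 4n-top population the higher peak signal. Each population had 4 libraries, apart from 4n-top with 3 (mice 2, 3 and 4), which makes 15 in all. No group carried a mutation or a treatment, and libraries with the same mouse number came from the same liver. The 4n-bottom cells were mostly binucleated, while 4n-top was only enriched for mononucleated cells and remained a mixture after a single round of sorting. By the study's methods 2n cells were spun harder than 4n cells after sorting, so this step and ploidy cannot be told apart.

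The PIDDosome is a protein complex in which PIDD1 and the adaptor CRADD (also called RAIDD) bring caspase-2 molecules together and so activate them. ANKRD26 recruits PIDD1 to the distal appendages of mature centrioles, and extra centrioles, which a cell gains when it fails to divide, activate the complex. Active caspase-2 cuts MDM2, the ubiquitin ligase that keeps p53 low, and p53 then induces the cell cycle inhibitor p21, the product of Cdkn1a. In the liver this pathway is known to limit how far hepatocytes polyploidize during growth and regeneration, and E2F transcription factors are known to control Casp2 and Pidd1 transcription there. Much of the pathway acts through protein assembly, cleavage and stability, none of which was measured here.

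Total counts per library ranged from 22049498 to 42096421, with a median of 36876435. Levels are given as CPM, counts scaled to a common effective library size (TMM), so each is a share of a library and not a number of transcripts per cell; fewer expressing cells and less RNA per cell cannot be told apart in these bulk samples. At these depths 3 counts corresponded to 0.0693 to 0.12 CPM, a limit that covers counting error only. The 8 hepatocyte markers summed to between 88400 and 118000 CPM in every library. Of 5 cholangiocyte markers 4 were tested, and 2 of them, Spp1 and Sox9, were called lower in 4n-whole than in 2n-whole, with a summed level of at most 31.2 CPM in the former and at least 34.6 CPM in the latter. For 4n-bottom this sum was 21.3 to 30.4 CPM, and for 4n-top it was 17.8 to 32 CPM. Krt19, Krt7 and Epcam were at 0 in the 3 libraries of 4n-top, as were Krt7 in all of 4n-whole and Epcam in all of 4n-bottom. Most of the sum was Sox9 and Spp1, with means of 30.8 and 9.61 CPM in 2n-whole, where Krt19 was at 0.72 CPM, so it mainly follows these 2 genes. Endothelial markers summed to at most 22.4 CPM, Kupffer cell and macrophage markers to at most 7.64 CPM and stellate cell markers to at most 5.01 CPM. Pericentral landmark genes summed to 469 to 766 CPM in 2n-whole and to 765 to 2700 CPM in 4n-whole, and 7 of 8 were called higher there, as were 6 of 8 in 4n-bottom (758 to 1940 CPM) and 5 of 8 in 4n-top (754 to 2970 CPM). Of 7 periportal landmarks 3 were called lower in 4n-whole, 0 in 4n-bottom and 1 in 4n-top. Their median log2 fold change against 2n-whole was -0.33 in 4n-whole, -0.08 in 4n-bottom and -0.42 in 4n-top. Pericentral landmarks were thus higher in each 4n population, while periportal ones were lower in 4n-whole and 4n-top and little changed in 4n-bottom. Between 4n-top and 4n-bottom 1 pericentral landmark, Glul, was called, at -0.90. The pericentral landmarks did not move one way there, with Slc1a2 at -1.08 and Cyp1a2 at 0.60, neither of them called. Of the 8, 4 had a value above 0, and 5 had an unadjusted p under 0.05, against 2.79% of all genes. Of the 7 periportal landmarks 0 had a value above 0. The part of these cell type and zonation differences in the results on the 10 genes was not tested.

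The test was the quasi-likelihood F test of edgeR, fitted to the 15 libraries together, with a term for population and a blocking term for the mouse. A gene was called when its Benjamini-Hochberg adjusted p-value, over all 17488 genes, was under 0.05 and its log2 fold change was above 0.5 in size. None of the 10 genes was called in any of the 4 comparisons. Of all tested genes, 3.47% (607) passed for 4n-whole against 2n-whole, 0.463% (81) for 4n-bottom against 2n-whole, 0.961% (168) for 4n-top against 2n-whole, and 0.0114% (2) for 4n-top against 4n-bottom. At these shares a count of 0 among 10 genes lies near the background. The unadjusted p was under 0.05 for Ankrd26 and Bax in the first of these comparisons and for Casp2 in the second, that is for 2, 1, 0 and 0 of the 10 genes, against 20.4%, 10.2%, 11.3% and 2.79% of all genes. DESeq2 with the same block also called 0 of the 10 in each comparison. The smallest adjusted p among them was 0.18, 0.4, 0.55 and 1. Their median log2 fold change was 0.14, -0.13, -0.02 and 0.09, beside medians of -0.01, 0.00, 0.00 and 0.00 over all tested genes. The 3 comparisons with 2n-whole share its libraries and are not independent of one another.

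**Figure D1:**
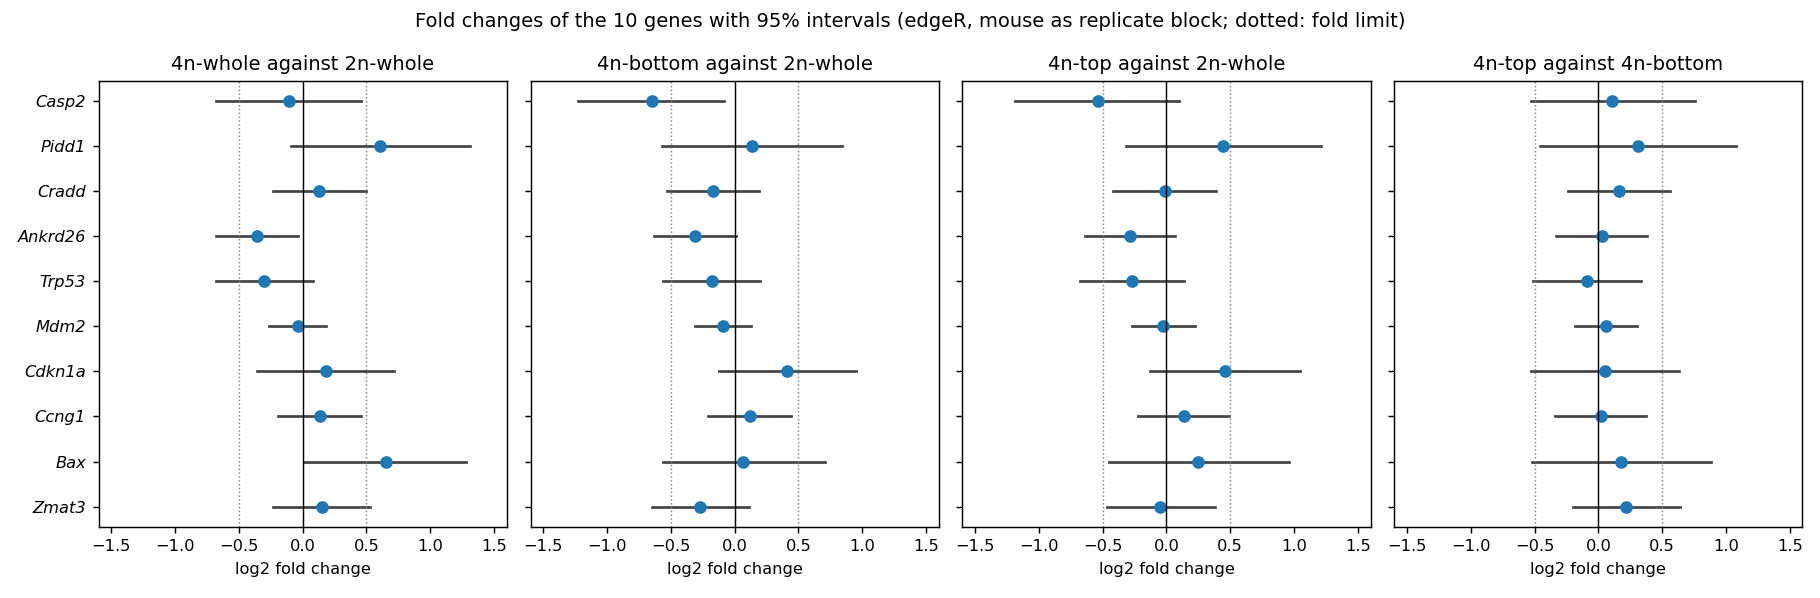
Log2 fold changes (x axis) of the 10 genes (y axis) in the 4 comparisons, with points for the edgeR estimates, bars for 95% intervals and dotted lines at the fold limit of 0.5. The bars of Ankrd26 and Bax in the first panel and of Casp2 in the second do not reach 0, and none of the 10 genes was called.

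Per kilobase of exon, Ccng1 and Mdm2 were the most abundant of the 10 transcripts, with means over the 15 libraries of 5.18 and 4.84 CPM per kb, at percentiles 80.1 and 79.1 of the 17428 tested genes with a known length. Bax at 1.87, Trp53 at 1.67, Ankrd26 at 1.58 and Cradd at 1.17 CPM per kb lay above the middle of that distribution, while Cdkn1a at 0.763, Zmat3 at 0.657, Pidd1 at 0.479 and Casp2 at 0.397 CPM per kb lay below it. In this order the step from Mdm2 to Bax and that from Ankrd26 to Cradd were larger than the SD of either gene over the libraries, and the step from Cradd to Cdkn1a was about as large as the SD of Cdkn1a. All the other neighbours in the order differed by less than the larger SD of the pair. Casp2 and Pidd1, the protease and its scaffold, had the lowest means per kb, though the step from Zmat3 to Pidd1 lay within their spread. Their raw counts were 48 to 160 and 36 to 170 per library. The lowest and highest library differed most for Cdkn1a, by 5.32-fold, followed by Bax with 4.5-fold and Pidd1 with 3.79-fold, and least for Mdm2 with 1.81-fold and Ccng1 with 1.82-fold.

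**Figure D2:**
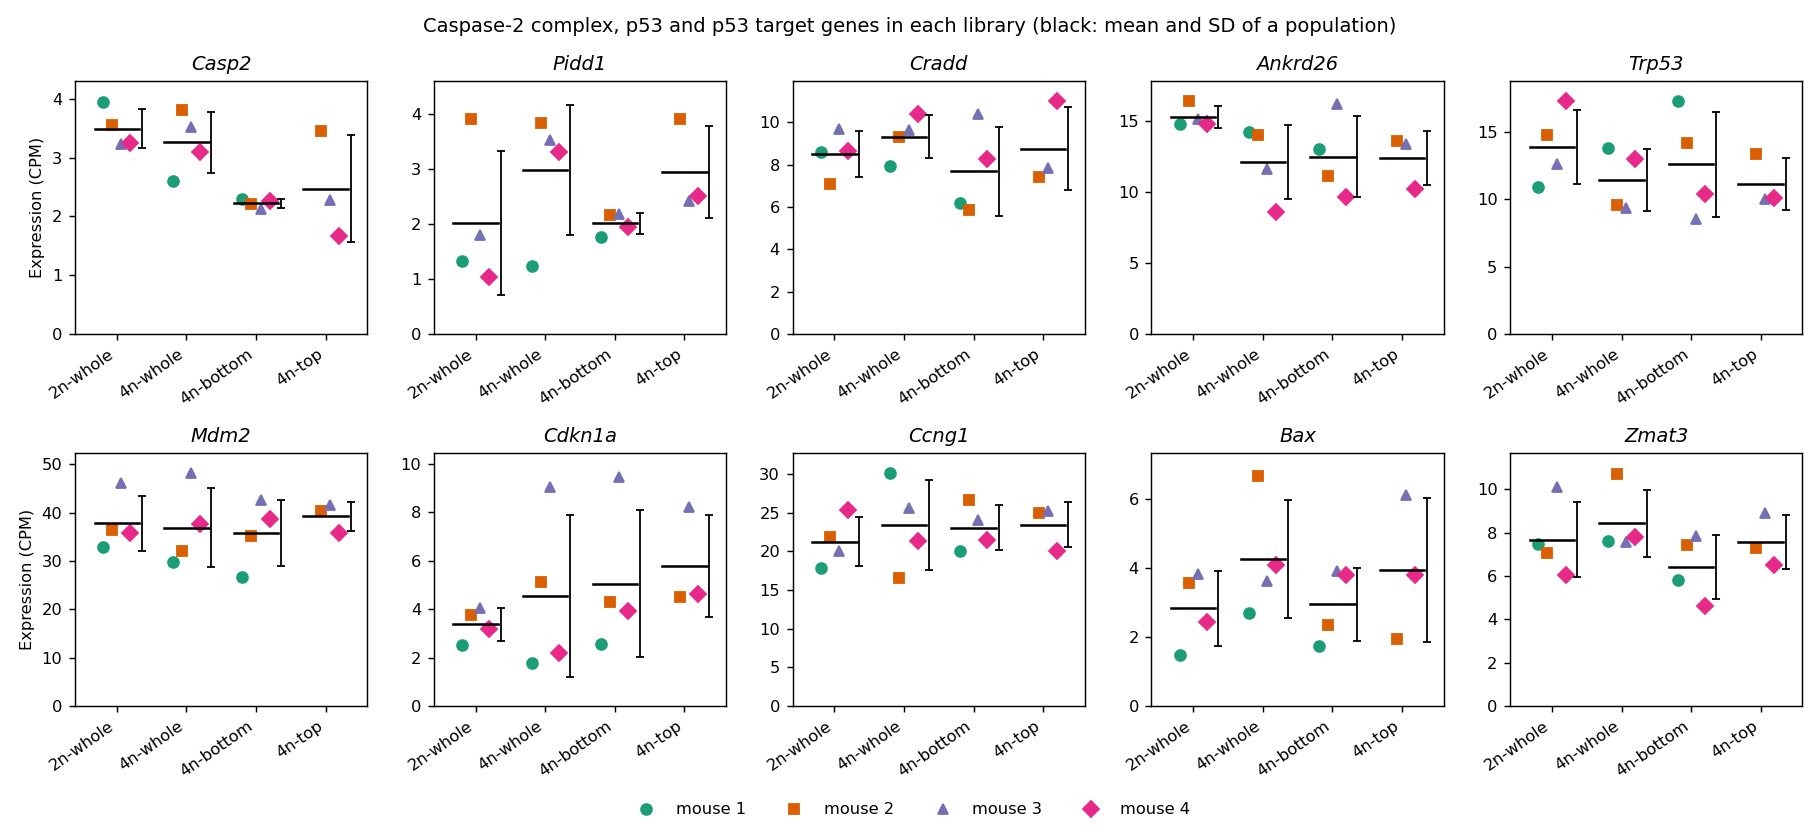
Expression in CPM (y axis, from 0) of each of the 10 genes in each library, by population (x axis), with the mouse given by colour and shape and the mean and SD of each population in black. The 4 Casp2 points of 4n-bottom, 2.12 to 2.29 CPM, lie below the 4 of 2n-whole, and the mouse 3 points of Cdkn1a are the highest of their populations.

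Casp2, which encodes the protease itself (GRCm39 chr6:42241918-42259443, plus strand), was measured in 2n-whole at 3.94, 3.56, 3.23 and 3.25 CPM in mice 1 to 4. In 4n-whole it was 2.6, 3.81, 3.52 and 3.1 CPM, in 4n-bottom 2.29, 2.21, 2.12 and 2.26 CPM, and in 4n-top 3.46, 2.27 and 1.67 CPM in mice 2 to 4. All 4n-bottom libraries thus lay below all 2n-whole libraries, whereas 4n-whole and 4n-top overlapped 2n-whole. The order of the means was 2n-whole with 3.5 ± 0.334, 4n-whole with 3.26 ± 0.526, 4n-top with 2.47 ± 0.912 and 4n-bottom with 2.22 ± 0.0735 CPM (SD). The step from 4n-whole to 4n-top was smaller than the SD of 4n-top but larger than that of 4n-whole, and the steps on either side of it were smaller than the larger SD of the pair. The mean of 4n-whole thus lay above the means of both fractions gated within 4n cells, and the reason was not tested. Between 4n-bottom and 2n-whole the log2 fold change was -0.65 (SE 0.28, 95% interval -1.23 to -0.08), which is 0.636 of the 2n-whole level, and it was below 0 in 4 of 4 mice with values from -0.77 to -0.51. With an unadjusted p of 0.027 and an adjusted p of 0.4, Casp2 did not pass the test, and 1.83% of all tested genes were lower in 4n-bottom without overlap. The log2 fold change of Casp2 was -0.11 (-0.68 to 0.46) in 4n-whole and -0.54 (-1.19 to 0.10) in 4n-top, each against 2n-whole, and 0.11 (-0.53 to 0.76) in 4n-top against 4n-bottom. The summed cholangiocyte markers, mostly Sox9 and Spp1, were also lower in 4n-bottom than in 2n-whole without overlap, and 6 of 8 pericentral landmarks were higher there. The part of these markers or landmarks in the Casp2 values was not tested.

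Because E2F factors are known regulators of Casp2 and Pidd1 and E2f8 was among the called genes described further on, the promoters of the 10 genes were searched for 4 E2F words, TTTCCCGC, TTTCGCGC, TTTGCCGC and TTTGGCGC, on both strands from 250 bases before to 50 bases after the transcript start. Casp2 was the only member with a match, and 2.82% (614) of 21770 protein-coding genes had one. The match starts at position -96 from the start site, and it is shown in capitals in the 120 bases upstream of Casp2, chr6:42241798-42241917 of GRCm39, plus strand.
Casp2 promoter: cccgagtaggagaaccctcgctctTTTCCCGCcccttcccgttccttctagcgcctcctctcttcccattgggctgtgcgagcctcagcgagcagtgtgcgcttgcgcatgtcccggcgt
A match in this window is a description of letters, and binding was not measured.

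Pidd1, the scaffold that nucleates the complex (chr7:141018026-141023938, minus strand), was measured at 1.33, 3.92, 1.81 and 1.03 CPM in 2n-whole and at 1.24, 3.85, 3.54 and 3.32 CPM in 4n-whole, in mice 1 to 4. In 4n-bottom it was 1.77, 2.16, 2.18 and 1.94 CPM, and in 4n-top it was 3.92, 2.42 and 2.51 CPM. Mouse 2 had the highest value in 2n-whole, 4n-whole and 4n-top, and the 4n-top libraries all lay above the 4n-bottom ones, as did 1.37% of all tested genes. The log2 fold change was 0.61 (SE 0.34, 95% interval -0.09 to 1.31, adjusted p = 0.33) between 4n-whole and 2n-whole, with 2 of 4 mice higher in 4n-whole, and it ran from 0.29 without mouse 4 to 0.87 without mouse 2. It was 0.14 (-0.57 to 0.84) for 4n-bottom and 0.44 (-0.32 to 1.21) for 4n-top against 2n-whole, and 0.31 (-0.46 to 1.08, adjusted p = 1) between 4n-top and 4n-bottom. These intervals reach to more than a doubling in 4n-whole and 4n-top, so the data do not bound Pidd1 as tightly as most other members.

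Cradd, the adaptor between PIDD1 and caspase-2 (chr10:95010579-95181736, minus strand), ranged from 5.85 to 11 CPM over the libraries. Its means were 9.33 ± 1.03 CPM in 4n-whole, 8.76 ± 1.96 in 4n-top, 8.5 ± 1.09 in 2n-whole and 7.68 ± 2.09 in 4n-bottom (SD), and no neighbours in this order differed beyond their spread. The log2 fold changes against 2n-whole were 0.13 (-0.23 to 0.50) in 4n-whole, -0.17 (-0.53 to 0.19) in 4n-bottom and -0.01 (-0.42 to 0.39) in 4n-top, and the value between 4n-top and 4n-bottom was 0.16 (-0.24 to 0.56). Of its exon bases 11.6% are shared with an lncRNA on the opposite strand, Gm48882, and the strand setting of the counting is not given in the sources used here.

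Ankrd26, the centriolar anchor of PIDD1 (chr6:118478269-118539253, minus strand), was measured in 2n-whole at 14.8, 16.39, 15.1 and 14.8 CPM. In 4n-whole it was 14.2, 14, 11.6 and 8.6 CPM, in 4n-bottom 13, 11.1, 16.2 and 9.64 CPM, and in 4n-top 13.6, 13.4 and 10.2 CPM. All 4n-whole and all 4n-top libraries lay below all 2n-whole libraries, while mouse 3 of 4n-bottom lay among them. Of all tested genes, 3.09% were lower without overlap in 4n-whole and 4.39% in 4n-top. The log2 fold change between 4n-whole and 2n-whole was -0.36 (SE 0.16, 95% interval -0.68 to -0.04), with 0 of 4 mice higher in 4n-whole. Its unadjusted p was 0.029 and its adjusted p 0.18, so Ankrd26 did not pass the test. The values were -0.31 (-0.63 to 0.01, adjusted p = 0.5) in 4n-bottom, -0.29 (-0.64 to 0.07, adjusted p = 0.57) in 4n-top and 0.03 (-0.33 to 0.38) between 4n-top and 4n-bottom. After adjustment of the counts for the mouse with ComBat-seq followed by DESeq2, the 4n-whole value was -0.40 with an adjusted p of 0.036, still below the fold limit, and the adjusted p over the alternatives without a mouse left out ran up to 0.52.

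Trp53, which encodes p53 (chr11:69469669-69482701, plus strand), ranged from 8.54 to 17.3 CPM, and each population contained libraries on both sides of its overall mean. Its means were 13.9 ± 2.76 CPM in 2n-whole, 12.6 ± 3.92 in 4n-bottom, 11.42 ± 2.28 in 4n-whole and 11.2 ± 1.91 in 4n-top (SD), and no neighbours in this order differed beyond their spread. The log2 fold changes against 2n-whole were -0.30 (-0.68 to 0.08, adjusted p = 0.38) in 4n-whole, -0.18 (-0.56 to 0.20) in 4n-bottom and -0.27 (-0.68 to 0.14) in 4n-top. Between 4n-top and 4n-bottom the value was -0.09 (-0.51 to 0.33). Of the Trp53 exon bases 3.6% are shared with Wrap53 on the opposite strand.

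Mdm2, the ligase that marks p53 for degradation and is cut by caspase-2 (chr10:117524780-117546730, minus strand), was the member measured most precisely. In 2n-whole it was 32.8, 36.5, 46.1 and 35.7 CPM and in 4n-whole 29.8, 32, 48.3 and 37.6 CPM. The 4n-bottom libraries had 26.7, 35.2, 42.6 and 38.6 CPM, and those of 4n-top 40.4, 41.6 and 35.9 CPM. The populations overlapped throughout, and mouse 3 had the highest and mouse 1 the lowest value wherever both were sequenced. The log2 fold changes were -0.04 (-0.26 to 0.18) in 4n-whole, -0.09 (-0.31 to 0.13) in 4n-bottom and -0.03 (-0.27 to 0.22) in 4n-top against 2n-whole, and 0.06 (-0.18 to 0.30) between 4n-top and 4n-bottom. Changes of Mdm2 transcript beyond these intervals were not seen in either direction, which says nothing of the cleaved protein.

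p53 is known to bind a 20-base site, and the letters of such sites near the members are shown to let the target genes be compared at the sequence level. A site was taken as 2 adjacent decamers, each of 3 purines, C, 2 bases of A or T, G and 3 pyrimidines, with every C and G of the cores kept and at most 2 other bases off, within 3000 bases of the canonical transcript start on either side. The search found sites in 5 of the 10 genes, in 4 of the 5 p53 targets among them (Mdm2 counted as one), and in 7 of 28 other p53 targets, beside 5.86% (1276) of 21770 protein-coding genes. The pattern and window were set after a stricter search had missed the known Cdkn1a site. The Cdkn1a match was thus fixed in advance, and the count among the members is not independent of that choice. The site of Zmat3 had 0 bases off, as did 0.106% (23) of those genes. In the following lines the bases off the pattern are in lower case and all others in capitals, written on the strand of the gene in GRCm39.
Cdkn1a, chr17:29309902-29309921, plus strand, upstream, at -2836 bases from the start: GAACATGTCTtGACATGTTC
Ccng1, chr11:40646289-40646308, minus strand, upstream, at -170 bases from the start: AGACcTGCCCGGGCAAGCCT
Ccng1, chr11:40645763-40645782, minus strand, in an intron 356 bases after the start: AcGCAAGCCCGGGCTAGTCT
Bax, chr7:45115998-45116017, minus strand, in an exon 308 bases after the start: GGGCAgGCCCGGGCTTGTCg
Zmat3, chr3:32418480-32418499, minus strand, in an exon 1409 bases after the start: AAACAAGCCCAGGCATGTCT
Pidd1, whose name records that it was found as a p53-induced gene, held a pair of sites, each with 2 bases off, in an exon 680 and 703 bases after the start.
Pidd1, chr7:141023239-141023258, minus strand: AGcCTTGCCTAAGCAgGCTT
Pidd1, chr7:141023216-141023235, minus strand: tGGCAAGCTgGGACATGTCT
For Mdm2, Trp53, Casp2, Cradd and Ankrd26 these letters were not found in the window, and occupancy by p53 was not measured for any gene.

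Cdkn1a, which encodes the cell cycle inhibitor p21 (chr17:29309936-29319701, plus strand), was measured in 2n-whole at 2.51, 3.74, 4.03 and 3.19 CPM. In 4n-whole it was 1.78, 5.13, 9.03 and 2.18 CPM, in 4n-bottom 2.54, 4.29, 9.44 and 3.94 CPM, and in 4n-top 4.5, 8.21 and 4.64 CPM. Mouse 3 was the highest in all 4 populations, and its 4n libraries, at 8.21 to 9.44 CPM, stood above every other library. All 4n-top libraries lay above all 2n-whole libraries, as did 4.82% of all tested genes. The log2 fold change was 0.46 (SE 0.29, 95% interval -0.13 to 1.05) in 4n-top, with 3 of 3 mice higher, and 0.41 (-0.12 to 0.95) in 4n-bottom, with 4 of 4 mice higher, with adjusted p of 0.58 and 0.63. Without mouse 3 the 4n-bottom value was 0.17. In 4n-whole it was 0.18 (-0.36 to 0.72, adjusted p = 0.78) with 2 of 4 mice higher, and -0.15 once mouse 3 was left out. Between 4n-top and 4n-bottom it was 0.05 (-0.53 to 0.63). No population difference of Cdkn1a thus passed the test, and an increase of up to the upper bound of each interval remained possible. Of its exon bases 8.3% are shared on the opposite strand with Dino and 4.1% with Gm64878.

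Ccng1, whose product cyclin G1 is a p53-induced partner of MDM2 (chr11:40639377-40646148, minus strand), ranged from 16.6 to 30.2 CPM, and both of these extremes were 4n-whole libraries. Its means were 23.5 ± 5.8 CPM in 4n-whole, 23.5 ± 2.95 in 4n-top, 23.1 ± 2.9 in 4n-bottom and 21.3 ± 3.22 in 2n-whole (SD), which did not differ beyond their spread. The log2 fold changes against 2n-whole were 0.14 (-0.19 to 0.46) in 4n-whole, 0.12 (-0.21 to 0.44) in 4n-bottom and 0.14 (-0.22 to 0.49) in 4n-top, and the value between 4n-top and 4n-bottom was 0.02 (-0.34 to 0.37).

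Bax, a pore-forming protein of the mitochondrial death pathway (chr7:45111015-45116325, minus strand), was measured at 1.48, 3.56, 3.83 and 2.44 CPM in 2n-whole and at 2.68, 6.65, 3.62 and 4.08 CPM in 4n-whole. In 4n-bottom it was 1.74, 2.35, 3.9 and 3.78 CPM, and in 4n-top it was 1.94, 6.1 and 3.8 CPM. The populations overlapped, with 3 of 4 mice higher in 4n-whole than in 2n-whole and mouse 3 slightly lower. The log2 fold change between 4n-whole and 2n-whole was 0.65 (SE 0.31, 95% interval 0.01 to 1.28), with an unadjusted p of 0.046 and an adjusted p of 0.23, so Bax did not pass the test. It was 0.07 (-0.56 to 0.71) in 4n-bottom, 0.25 (-0.45 to 0.96) in 4n-top and 0.18 (-0.52 to 0.88) between 4n-top and 4n-bottom. Bax shares 10.3% of its exon bases with Gm45808 on the same strand, so reads there may be split or dropped.

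Zmat3, an RNA-binding zinc finger protein induced by p53 (chr3:32388941-32420163, minus strand), ranged from 4.6 to 10.7 CPM. Its means were 8.43 ± 1.55 CPM in 4n-whole, 7.68 ± 1.71 in 2n-whole, 7.56 ± 1.24 in 4n-top and 6.41 ± 1.49 in 4n-bottom (SD), and no neighbours in this order differed beyond their spread. The log2 fold changes against 2n-whole were 0.15 (-0.23 to 0.53) in 4n-whole, -0.27 (-0.65 to 0.11) in 4n-bottom and -0.05 (-0.47 to 0.38) in 4n-top, and the value between 4n-top and 4n-bottom was 0.22 (-0.20 to 0.64).

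The 10 genes were also compared between the 4 mice, in the same edgeR model with the population kept as a factor. This test was added after the values had been seen. Cdkn1a and Mdm2 differed between mice at an adjusted p of 0.00045 and 0.0049, that is 2 of 10 genes, beside 19.2% (3358) of all tested genes, so the count itself lies near the background. The mouse means of Cdkn1a, as deviations on the log2 scale with the population effect removed, were -0.74, 0.13, 0.86 and -0.25 in mice 1 to 4. For Mdm2 they were -0.29, -0.02, 0.29 and 0.02, so both genes were highest in mouse 3 and lowest in mouse 1. Trp53 was lowest in mouse 3, with deviations of 0.16, 0.08, -0.27 and 0.03, but it did not pass the test (adjusted p = 0.3). Bax had the same lowest and highest mice as Cdkn1a, with -0.69, 0.07, 0.46 and 0.16, at an adjusted p of 0.087. Pidd1 at -0.56, 0.58, 0.11 and -0.13 had its highest mean in mouse 2, at an adjusted p of 0.11. For Cradd, Ankrd26, Casp2, Ccng1 and Zmat3 the adjusted p lay between 0.18 and 0.97, and Ccng1 spanned only 0.10 on the log2 scale.

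The difference between mice depended on single mice. Without mouse 3 the adjusted p was 0.14 for Cdkn1a and 0.27 for Mdm2, and 0 of the 10 genes passed. Without mouse 1 the values were 0.0054 and 0.068, and without mouse 2 Bax passed as a 3rd gene. Over the other alternatives, DESeq2's likelihood ratio test and the 4n libraries alone among them, the same genes passed. Immediate-early and heat shock genes, which respond to cell isolation, summed to 1630 to 3360 CPM over all libraries. For mouse 3 the sum was 2190 CPM in 2n-whole, 2310 CPM in 4n-whole, 2520 CPM in 4n-bottom and 2320 CPM in 4n-top. Mouse 1 lay below mouse 3 wherever both were sequenced, at 1910, 1920 and 1990 CPM in the same order. Mouse 4 also lay below it in each population, at 1630, 2290, 1820 and 2120 CPM. Mouse 2 lay above mouse 3 in 2n-whole (2330 CPM), 4n-whole (3360 CPM) and 4n-top (2530 CPM). In 4n-bottom mouse 2 lay below it, at 2420 CPM. The part of these genes, or of the cell type and zonation markers, in the differences between mice was not tested. Whether the mice also differed in the day of isolation and sorting or in other steps is not given in the sources used here. Any such difference cannot be told apart from one between the mice themselves.

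**Figure D3:**
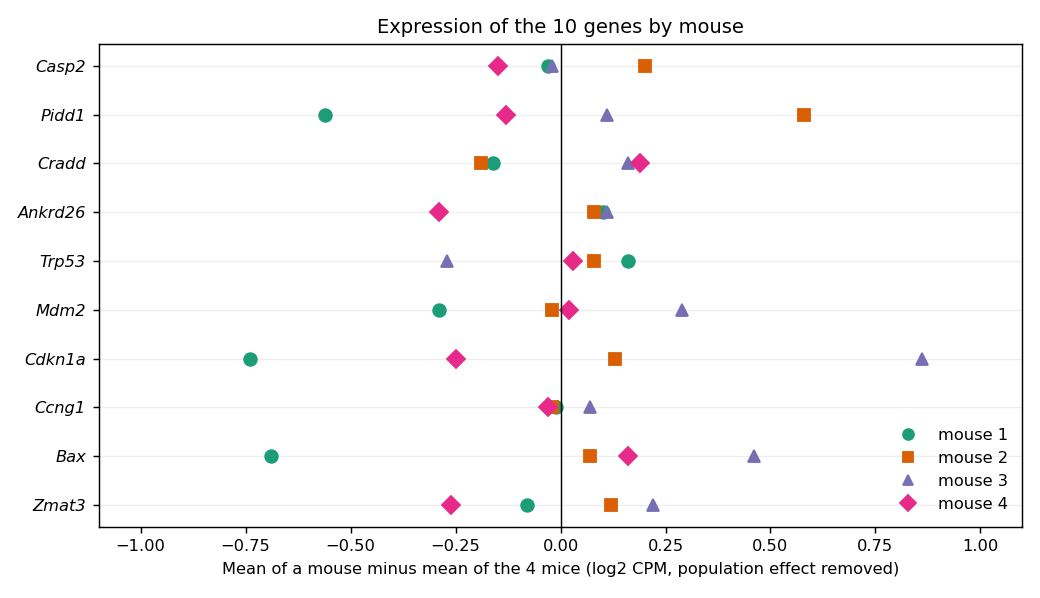
Mean log2 CPM of each mouse minus the mean of the 4 mice (x axis), with the population effect removed, for the 10 genes (y axis), with a colour and shape for each mouse. Cdkn1a runs from -0.74 in mouse 1 to 0.86 in mouse 3 and Mdm2 from -0.29 to 0.29, while the points of Ccng1 lie within 0.10 of each other.

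The other genes of the pathway were taken from lists of p53 targets, p53 regulators, caspases and related groups. Between 4n-whole and 2n-whole, 1 of 26 tested p53 targets outside the members was called higher and 1 lower, beside 3.47% of all genes called, and 16 of 26 had a value above 0 with a median of 0.12. Plk2, a polo-like kinase with a part in centriole duplication, was 30.1 ± 5.96 CPM in 2n-whole and 19.4 ± 4.8 CPM in 4n-whole (SD), a log2 fold change of -0.64 (SE 0.14, adjusted p = 0.005). It was -0.46 in 4n-bottom (adjusted p = 0.18) and -0.49 in 4n-top (adjusted p = 0.14), and without mouse 4 the 4n-whole call was lost at an adjusted p of 0.079. Bbc3, which encodes the cell death protein PUMA, was higher by 0.81 (SE 0.24, adjusted p = 0.04), and this gene and Perp are named after their values were seen. The Bbc3 call was lost without mouse 2 at a value of 0.44 (adjusted p = 0.36) and without mouse 4 (adjusted p = 0.16). Plk3 at 0.44, Dcxr at 0.36 and Perp at -0.41 had adjusted p of 0.033, 0.028 and 0.047 but stayed under the fold limit, which Plk3 and Perp passed once mouse 3 was left out, at 0.61 and -0.57. Their adjusted p rose above 0.05 without other mice, for Plk3 to 0.066, 0.17 and 0.24 without mouse 1, 2 or 4, for Dcxr to 0.087, 0.069 and 0.27 likewise, and for Perp to 0.26 and 0.34 without mouse 2 or 4. The called genes thus did not move one way, and none of the 26 was called in the other 3 comparisons, where the unadjusted p was under 0.05 for 5, 3 and 0 of them, against 10.2%, 11.3% and 2.79% of all genes. In 4n-whole against 2n-whole it was under 0.05 for 11 of the 26, against 20.4% of all genes. Of 10 tested isolation response genes (immediate-early and heat shock genes) 4 had an adjusted p under 0.05 in the same comparison. These were Hspa1b at 0.86, Jun at 0.41, Junb at 0.37 and Ier2 at 0.33, and only Hspa1b was called, beside 3.47% of all genes. The list summed to 1630 to 2330 CPM in 2n-whole and to 1920 to 3360 CPM in 4n-whole. The part of the isolation response genes in the values of the p53 targets was not tested.

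**Figure D4:**
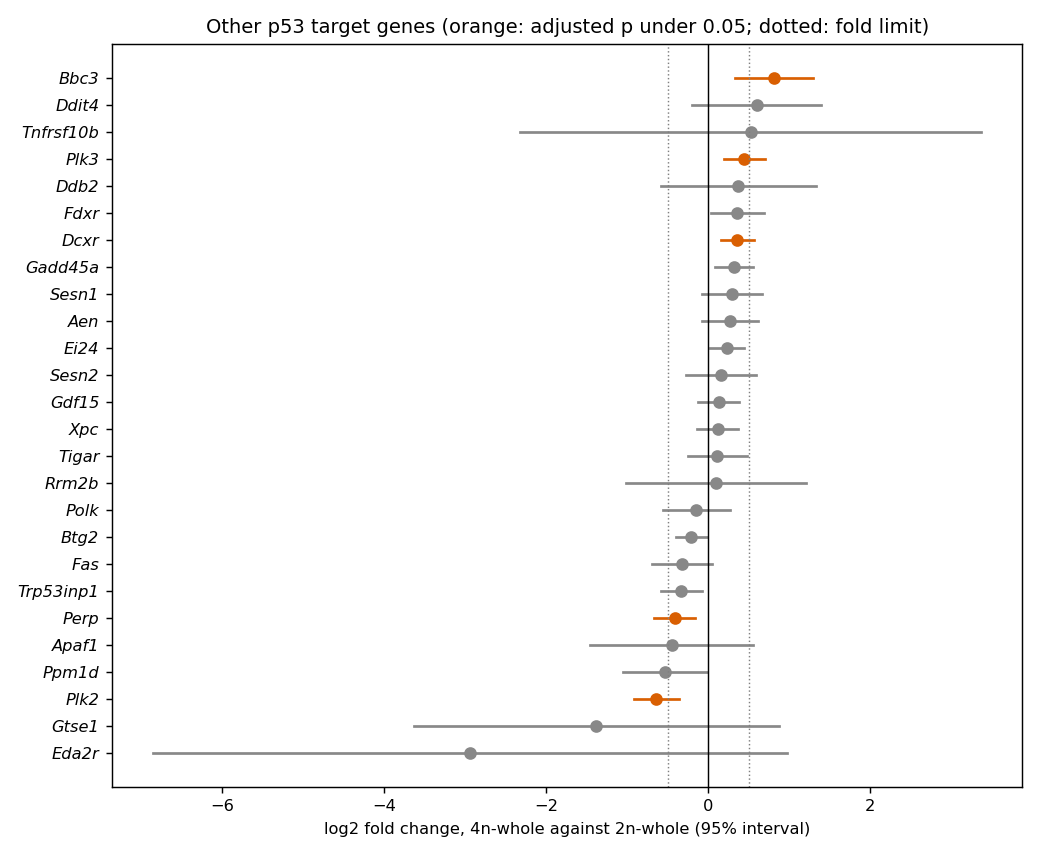
Log2 fold changes between 4n-whole and 2n-whole (x axis) of 26 tested p53 target genes outside the members (y axis), with 95% intervals, dotted lines at the fold limit and colour for an adjusted p under 0.05. The 5 coloured genes are Bbc3, Plk3 and Dcxr above 0 and Perp and Plk2 below it, of which Bbc3 and Plk2 lie beyond the fold limit.

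E2F factors are known to set hepatocyte ploidy, with E2F7 and E2F8 promoting polyploidization and E2F1 opposing it. E2f8 was 2.18 ± 0.807 CPM in 2n-whole and 5.94 ± 3.29 CPM in 4n-whole (SD), a log2 fold change of 1.30 (SE 0.31, adjusted p = 0.014). It was the 1 of 3 E2F genes called, beside 3.47% of all tested genes. The 4n-bottom level was 3.76 ± 1.6 CPM and that of 4n-top 4.81 ± 3.05 CPM, with log2 fold changes of 0.71 (adjusted p = 0.43) and 1.00 (adjusted p = 0.21) that did not pass the test. The 4n-whole call was lost without mouse 1 (adjusted p = 0.059) and without mouse 4 (adjusted p = 0.22). The 4n-whole value of E2f8 lay further from 0 than those of both fractions gated within 4n cells. This also held for Plk2, for Bbc3, with 0.40 in 4n-bottom and 0.53 in 4n-top, and for Sclt1 described next. The reason was not tested. E2f1 had a log2 fold change of -0.20 in 4n-whole (-0.80 to 0.41), and E2f7 was at or under 0.835 CPM in every library. Casp2, which carries the E2F word shown above, had -0.11, -0.65 and -0.54 in 4n-whole, 4n-bottom and 4n-top against 2n-whole. Pidd1 had 0.61, 0.14 and 0.44 in the same order, and none of these values passed the test. The part of E2f8 in the values of Casp2 and Pidd1 was not tested.

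Of the 8 centriole distal appendage genes, the site to which ANKRD26 brings PIDD1, 0 were called higher and 1 lower in 4n-whole, beside 3.47% of all genes called. Of the 8, 5 had a value above 0. The unadjusted p was under 0.05 for 5 of the 8, against 20.4% of all genes. The genes with such a p did not move one way, with Fbf1 at 0.43 and Sclt1 at -0.63 among them. Sclt1, an appendage component, was 11.8 ± 2.14 CPM in 2n-whole, 7.8 ± 2.22 in 4n-whole, 8.55 ± 1.4 in 4n-bottom and 8.07 ± 1.92 CPM in 4n-top (SD). Its log2 fold change was -0.63 (SE 0.18, adjusted p = 0.035) in 4n-whole, -0.47 (adjusted p = 0.34) in 4n-bottom and -0.56 (adjusted p = 0.23) in 4n-top. The call was lost without mouse 1, 2 or 4, at adjusted p of 0.11, 0.21 and 0.082. Cep164, another appendage component, had 0.28 (adjusted p = 0.16), and Ankrd26 itself lay between these at -0.36.

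Of the 4 partners of PIDD1 and substrates of caspase-2, 0 were called in any comparison, and 1 had an unadjusted p under 0.05 in 4n-whole. Of all tested genes 20.4% had such a p in 4n-whole against 2n-whole, and 3.47% were called. The counts of this paragraph are not read as a result on the groups. Ikbkg, which encodes the NF-kappaB regulator NEMO that PIDD1 can also engage, had 0.38 (SE 0.09, adjusted p = 0.011) in 4n-whole, under the fold limit. Its adjusted p rose to 0.25 without mouse 4, to 0.094 with the compared populations only and to 0.65 without the replicate block. None of the 5 tested of 8 other caspases was called, and 2 had an unadjusted p under 0.05 in 4n-whole. Among 13 tested p53 regulators 0 were called (2 unadjusted), and Usp7, which removes ubiquitin from MDM2 and p53, had -0.24 (adjusted p = 0.14). The 8 genes of the BCL2 family and the 5 other CDK inhibitors had 0 calls as well (1 and 0 unadjusted), with Bcl2l1, which encodes the survival protein BCL-XL, at 0.24 (adjusted p = 0.21). Of the p53 family 1 of 2 genes was tested and 0 were called.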

How the data were processed

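RNA was measured in 15 libraries of sorted mouse hepatocytes. Per the labels and methods, the authors aligned reads to GRCm39 with STAR 2.7.11a and used featureCounts to assign them to genes. What they deposited are these raw counts, not normalized. The featureCounts version, annotation and strand setting are not given in the sources used here. Between 74.2% and 81.4% of counts from 1 to 10 were even, so both mates of a pair may have been counted, and 3 counts may stand for fewer fragments. The 4n-top library of mouse 1, left out by the study for RNA quality, was not analysed here.

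Counts were tested with edgeR 4.0.16 in R 4.3.3 (TMM scaling; filterByExpr at 10 counts and 15 in total; 1 model over the 15 libraries, population plus mouse as replicate block, 8 residual degrees of freedom), with 4 comparisons adjusted by the Benjamini-Hochberg method. Intervals are 95% intervals from the SE and the t quantile. The block follows the subject numbers in the labels, which mark the same animal. Residual expression correlated at a mean r of 0.158 over 21 pairs of libraries from the same mouse (lowest 0.0845) and of -0.0526 over 63 pairs from different mice. Log2 CPM used a prior count of 2. CPM per kb used the union of exons, and positions came from GENCODE M39. Alternatives used DESeq2 1.42.0, sva 3.50.0 (ComBat-seq), DESeq2 size factors, no filter, no fold limit, the compared populations only, no replicate block, and each mouse left out. The edgeR fit was run on counts simulated from these data, for 4n-whole against 2n-whole only. The other comparisons, the test between mice, the alternatives and the sequence searches were not covered by it.

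The 10 genes, the 21 lists (157 genes) and the tests were chosen with earlier results of these data known. Apart from the 10 genes, the text names up to 3 genes of each list with the smallest unadjusted p in any comparison and, for Casp2 and Cdkn1a, the 3 genes with the most similar profile. Named outside this rule, after their values were seen, are Bbc3, Perp, Ier2, Krt7 and Epcam. The comparison between mice was added after the data were seen. The p53 pattern and its window of 3000 bases were set after a stricter search had missed the known Cdkn1a site, so the count of members with a site is not independent of that choice. Promoter and site sequences were read from the GRCm39 genome.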

Additional observations from a re-analysis of the deposited data

Results flagged for a closer look

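Each of the 10 genes was examined for a library far from the others of its population in the 3 populations of 4 libraries, 30 groups in all. A library was picked out when its gap to the nearest other, divided by the range of the group, exceeded Dixon's 95% critical value. This held for 1 group, Zmat3 in 4n-whole, where mouse 2 had 10.7 CPM and the other mice 7.57, 7.62 and 7.78 CPM. Chance picks out about 1 in 20 groups, or 1.5 of 30. Without mouse 2 the log2 fold change of Zmat3 between 4n-whole and 2n-whole was -0.01 in place of 0.15, and neither passed the test. The same library had the highest sum of isolation response genes, 3360 CPM, and the part of these in its Zmat3 level was not tested.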

How the results depend on the processing

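In all 4 comparisons 0 of the 10 genes were called under every alternative run, also in edgeR without a fold limit. Among the members' fold changes 374 alternative values kept the direction and the side of the threshold, and 26 turned the sign of a value that did not pass the test. Without the replicate block 0 members and 40, 0, 2 and 0 of all genes were called, against 607, 81, 168 and 2 with it, so the pairing decided most calls over all genes. In that fit the sign turned for Pidd1 in 4n-bottom (-0.01), Cradd (0.04) and Mdm2 (0.06) in 4n-top, and Ankrd26 between 4n-top and 4n-bottom (-0.01), and the calls of Plk2, Bbc3, Sclt1 and E2f8 were lost. With the compared populations only it turned for Cradd in 4n-top (0.03), and for Trp53 (0.03) and Ccng1 (-0.04) between 4n-top and 4n-bottom, and the calls of Bbc3, Sclt1 and E2f8 were lost. Over all alternatives but the fold limit, the number of genes called spanned 40 to 1197 (4n-whole), 0 to 309 (4n-bottom), 2 to 595 (4n-top) and 0 to 49 (4n-top against 4n-bottom). Where ComBat-seq and DESeq2 called more genes than edgeR, the cause was not tested.

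When single mice were left out, the 4n-whole log2 fold change ranged from -0.19 to 0.05 for Casp2, -0.15 to 0.40 for Cdkn1a, -0.09 to 0.28 for Ccng1 and -0.01 to 0.33 for Zmat3. Without a turn of sign, Pidd1 ranged from 0.29 to 0.87 in 4n-whole and 0.19 to 0.63 in 4n-top, Cdkn1a from 0.17 to 0.55 in 4n-bottom, Ankrd26 from -0.47 to -0.22 in 4n-whole and Casp2 from -0.84 to -0.37 in 4n-top. The sign turned in 4n-bottom over the ranges -0.07 to 0.49 for Pidd1 and -0.13 to 0.28 for Bax, and in 4n-top over -0.20 to 0.13 for Cradd, -0.15 to 0.04 for Mdm2 and -0.07 to 0.69 for Bax. Between 4n-top and 4n-bottom it ranged from -0.19 to 0.34 for Casp2, -0.07 to 0.14 for Ankrd26, -0.21 to 0.03 for Trp53, -0.03 to 0.12 for Mdm2, -0.06 to 0.16 for Cdkn1a, -0.04 to 0.09 for Ccng1 and -0.15 to 0.40 for Bax. The number of members that differed between mice ranged from 0, without mouse 3, to 3, without mouse 2. The lowest raw counts were 48 for Casp2, 36 for Pidd1 and 60 for Bax, and how far counting error limits their tests was not tested.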

Other observations

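The genes with the profile most like that of Casp2 over the 15 libraries, by Pearson's r of log2 CPM with the mouse effect removed, were Atg4a (0.861), Gm44432 (0.857) and Dsel (0.85). For Cdkn1a they were Eef1akmt1 (0.91), Ndufs3 (0.884) and Antkmt (0.882). These are the highest of all tested genes, picked after the fact over libraries that share 4 livers, and are given as a description.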
